A study of Mus musculus with 8 samples.

Results

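A set of 91 genes of kinesin motors, kinetochores, condensin and mitosis was described in bulk RNA-Seq libraries of the mouse cardiac endothelial cell (MCEC) line. Its members are the protein-coding genes whose symbols belong to the kinesins, the centromere and kinetochore proteins, the spindle checkpoint, the Aurora and Polo kinases, the anaphase-promoting complex, condensin and its SMC relatives, or a short list of spindle and cytokinesis factors. *Kif26b*, *Kif7* and *Kif3a* were kept out by the rule, which is written on names. Of the 8278 genes of the table, 92 matched before these exceptions and 91 were members. The one left out, *Kif26b*, had a larger change than any member, from 546 ± 16.7 to 55.6 ± 9.05 normalized counts (SD, n = 4) and -3.30 on the log2 scale, so the counts of lower kinesins given here are without it. The study compared 4 libraries of *Hdac3* KO MCECs (KO), in which a lentiviral CRISPR vector carried a guide against *Hdac3*, with 4 libraries of MCECs that received the empty vector without a guide (EV). *Hdac3* encodes a histone deacetylase, an enzyme that removes acetyl groups from histones as part of repressor complexes. Both groups came from the same line and carried the same vector backbone. The sources do not say whether the KO cells were 1 clone or a pool. The study's reporting summary describes its in vitro work in general as done with technical replicates. It also refers in general to biological replicates numbered in the legends, and the methods state that experiments were repeated independently. For these libraries in particular, no source says whether they came from separate cultures. The p-values therefore measure the spread between these libraries, which may be technical.

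The table is a selection: its 8278 genes all have an authors' adjusted p below 0.05, so a member that did not differ in their comparison is not analysed here. Recovered library totals ran from 15775327 to 21262575 reads in EV and from 19356714 to 22255684 in KO. *Hdac3* itself ran from 1934 to 2137 normalized counts in EV and from 1458 to 1551 in KO, a log2 fold change of -0.45 (SE 0.04, adjusted p = 1e-13), so that KO libraries held 73.4% of the EV level. Of 14 endothelial marker genes 6 were in the table. Their summed level was 1851 to 2040 normalized counts in EV and 1619 to 1734 in KO, with 5 lower and 1 higher in KO. The higher one, the defining marker *Pecam1*, was at or near 0, with 0 to 1.18 in EV and 1.87 to 8.20 in KO. Of 12 fibroblast and mural markers 6 were in the table, with a summed level of 53816 to 57737 in EV and 52675 to 55495 in KO. These sums cover unequal changes: *Col1a1* was higher in KO by 0.23 on the log2 scale, while *Dcn* (-1.21), *Pdgfra* (-1.42), *Acta2* (-1.99), *Tagln* (-2.25) and *Pdgfrb* (-2.29) were lower, and the median of the list was -1.71. Of 8 leukocyte markers 1 was in the table, *Cd68*, at 124 to 136 in EV and 278 to 312 in KO, and of 9 cardiomyocyte markers 0 were. The part of these markers in the results was not tested.

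Mitosis begins when chromosomes condense and a bipolar spindle of microtubules forms. Condensin and topoisomerase II compact and disentangle the DNA, while cohesin holds sister chromatids together. Kinetochores, built on centromeric chromatin, bind the spindle microtubules, and unattached ones keep the spindle checkpoint active. Once the checkpoint is satisfied, the anaphase-promoting complex with Cdc20 marks securin and cyclin B for destruction and separase cuts cohesin. Mitotic kinesins, Aurora and Polo kinases drive spindle assembly, error correction and cytokinesis. Many of these genes are transcribed in G2 and M phase. In their promoters, CCAAT letters and a cell cycle genes homology region (CHR) are known sites for NF-Y and for the MuvB complexes with B-Myb or the DREAM complex. Other kinesins carry vesicles and organelles along microtubules throughout the cell cycle.

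Because the members fall into mitotic genes and transport and other kinesins, their promoter letters are shown first. RefSeq promoter windows of 300 bases, from 250 bases before to 50 after a gene's start (build GRCm38.p6, which shares its coordinates with mm10), matched 78 of the 91 members. They were searched on both strands for CCAAT and for the CHR letters TTTGAA or TTTAAA, the second of which reads the same on both strands and was counted once. A CCAAT and a CHR match can share at most 1 base at an edge. CHR letters were in a window of 45 of these 78 members (57.7%). The share over all 27025 genes with a window was 30.6%, and over the 6034 protein-coding genes of the table with a window it was 22.3%. CCAAT was in a window of 41 members (52.6%), against 41.1% of all genes and 42.8% of the protein-coding genes of the table. The 6 windows printed here are 4 of members that were higher in KO and hold both letters and 2 of members that were lower and hold neither. They were picked as examples, and some higher members, such as *Nuf2* and *Mad2l1bp*, hold neither as well. Capitals mark CCAAT or CHR letters on either strand, so that their reverse complements, such as ATTGG, are also in capitals. Each runs 5′ to 3′ on the strand of its gene, all 4 of the first group and *Kif16b* on the minus strand and *Ncaph2* on the plus strand. In *Top2a* (chr11:99024140-99024439) there were 6 CCAAT and 2 CHR matches, in *Aurka* (chr2:172370521-172370820) 2 and 2, in *Kif18b* (chr11:102925075-102925374) 2 and 1, and in *Kif22* (chr7:127042371-127042670) 2 and 2. In *Kif16b* (chr2:142901415-142901714) and *Ncaph2* (chr15:89355469-89355768) there were 0 and 0.
Top2a: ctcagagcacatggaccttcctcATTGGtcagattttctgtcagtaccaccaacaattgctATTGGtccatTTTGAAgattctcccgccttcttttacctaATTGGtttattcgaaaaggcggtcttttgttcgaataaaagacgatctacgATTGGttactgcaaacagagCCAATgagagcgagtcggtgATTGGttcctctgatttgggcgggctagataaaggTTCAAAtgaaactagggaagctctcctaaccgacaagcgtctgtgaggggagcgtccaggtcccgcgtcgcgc
Aurka: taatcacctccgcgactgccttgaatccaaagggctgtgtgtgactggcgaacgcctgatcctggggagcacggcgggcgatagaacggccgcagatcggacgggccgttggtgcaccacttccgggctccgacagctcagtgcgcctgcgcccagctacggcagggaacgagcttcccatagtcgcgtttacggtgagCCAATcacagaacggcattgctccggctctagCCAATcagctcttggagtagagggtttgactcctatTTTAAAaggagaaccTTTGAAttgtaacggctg
Kif18b: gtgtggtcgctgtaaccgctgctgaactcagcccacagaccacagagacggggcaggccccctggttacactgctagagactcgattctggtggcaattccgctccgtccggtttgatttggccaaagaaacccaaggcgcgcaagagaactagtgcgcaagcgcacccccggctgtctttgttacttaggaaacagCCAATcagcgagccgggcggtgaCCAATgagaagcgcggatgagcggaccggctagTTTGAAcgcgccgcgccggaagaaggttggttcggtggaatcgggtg
Kif22: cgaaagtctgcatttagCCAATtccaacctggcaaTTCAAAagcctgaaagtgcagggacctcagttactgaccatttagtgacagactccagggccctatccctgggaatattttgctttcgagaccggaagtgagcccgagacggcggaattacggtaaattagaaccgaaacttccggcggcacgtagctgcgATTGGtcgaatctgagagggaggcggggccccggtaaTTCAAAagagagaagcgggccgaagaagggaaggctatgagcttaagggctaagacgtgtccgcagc
Kif16b: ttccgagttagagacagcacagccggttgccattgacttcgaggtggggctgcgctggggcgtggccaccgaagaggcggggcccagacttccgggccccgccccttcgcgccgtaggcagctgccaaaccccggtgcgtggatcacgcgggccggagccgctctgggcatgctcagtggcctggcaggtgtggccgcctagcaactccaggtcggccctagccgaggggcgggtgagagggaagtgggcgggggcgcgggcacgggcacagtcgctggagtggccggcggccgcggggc
Ncaph2: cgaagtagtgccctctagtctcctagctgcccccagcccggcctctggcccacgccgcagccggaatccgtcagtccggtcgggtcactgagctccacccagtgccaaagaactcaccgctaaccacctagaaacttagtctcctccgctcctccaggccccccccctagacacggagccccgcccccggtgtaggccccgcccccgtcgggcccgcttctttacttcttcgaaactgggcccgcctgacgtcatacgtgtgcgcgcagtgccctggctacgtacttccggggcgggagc

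Split by direction in KO, CHR letters were in a window of 43 of the 64 higher members with a window (67.2%) and of 1 of the 12 lower ones (8.33%), *Cenpc1*. CCAAT was in a window of 38 higher members (59.4%) and of 2 lower ones (16.7%). Both kinds of letters stood in a window of 45.3% of the higher members, against 9.08% of the protein-coding genes of the table. Direction goes with role here, since 7 of the 13 lower members are transport and other kinesins and 3 are subunits of the anaphase-promoting complex. The higher *Kif5c*, *Kif2a* and *Kif1b* of that kinesin list held no CHR letters either. The split by direction can therefore not be told apart from one by role. By role, all 9 mitotic kinesins with a window and 0 of 9 transport and other kinesins held CHR letters. This second list, called transport kinesins for short, is mixed and also holds *Kif2a* and *Kif9*. The Aurora and Polo group had them in 6 of 7, spindle assembly and cytokinesis in 5 of 6, the outer kinetochore in 4 of 5, condensin in 5 of 7, the chromosome and other group in 3 of 5, the spindle checkpoint in 3 of 6, cohesin and Smc5/6 in 2 of 4, the centromere group in 5 of 12 and the anaphase-promoting complex list in 3 of 8. CCAAT by role ran in another order, beside 42.8% of the protein-coding genes of the table. It was in 4 of 5 of the chromosome and other group, 9 of 12 centromere genes and 6 of 9 mitotic kinesins. The spindle checkpoint and spindle assembly held it in 4 of 6 each and the anaphase-promoting complex list in 4 of 8. Aurora and Polo genes and condensin held it in 3 of 7 each, and the outer kinetochore in 2 of 5. Transport kinesins held it in 2 of 9 and cohesin and Smc5/6 in 0 of 4. These are matches of letters and were not tested for binding.

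**Figure D1:**
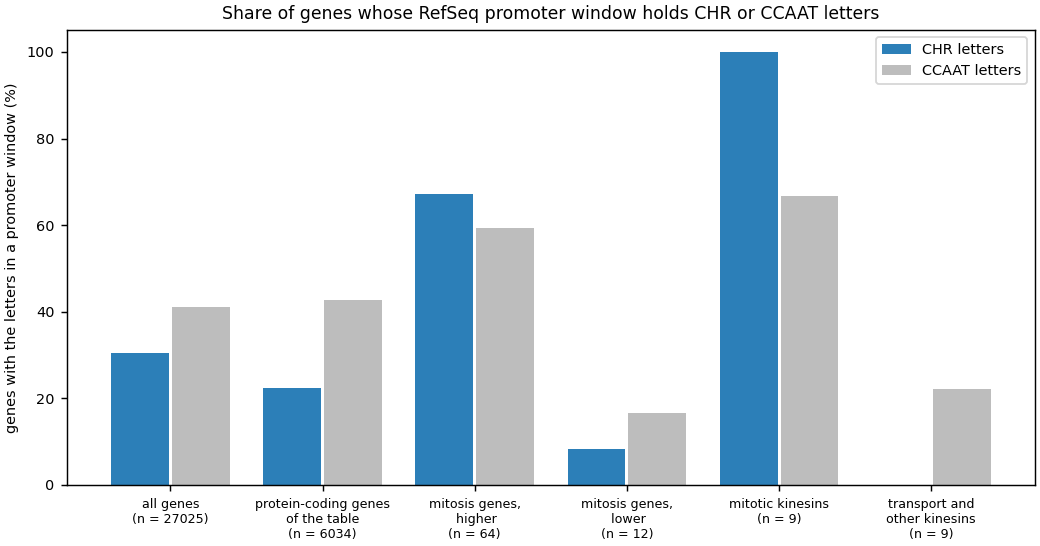
Bars give the percentage of genes (vertical axis, %) with CHR letters (blue) or CCAAT letters (grey) in a RefSeq promoter window, for all genes, the protein-coding genes of the table, the higher and lower members and the mitotic and transport kinesins, with the number of genes under each pair. CHR letters were in 67.2% of the higher members and in 8.33% of the lower ones, while the bar of the transport and other kinesins is at 0.

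The question of the comparison was how the mitotic genes stood in *Hdac3* KO MCECs beside EV MCECs. At an adjusted p under 0.01 in edgeR's quasi-likelihood test, 76 of the 91 members were higher in KO, 13 were lower and 2 were not called. Across all genes 96.7% of genes were called, so that a call by itself says little, and the directions were near even, with 47.1% higher and 49.6% lower. Of the members 83.5% were higher and 14.3% lower. In 71 members (78.0%, against 44.4% of all genes) every KO library lay above every EV library, in 11 (12.1%, against 46.6%) every KO library lay below, and in 9 the groups overlapped. Over all genes the groups overlapped in 738 of 8278, a share near that of the members. The 82 members whose groups did not overlap each gave p = 0.0286 in a two-sided exact permutation test, the lowest that 70 arrangements can reach. Non-overlap of 4 against 4 libraries fixes this value, so it adds nothing to the counts. The differences were small. The median log2 fold change of the members was 0.28, a fold of 1.21, against 0.06 over all genes. Changes beyond 0.5 on the log2 scale in either direction were found in 19 members (20.9%, against 38.5% of all genes), 18 of them upward. Member transcripts took 1.04% ± 0.01 of all reads in EV and 1.17% ± 0.01 in KO (SD, n = 4 libraries each). In bulk RNA, a larger share of cells in G2 or M phase and more of these transcripts in each such cell cannot be told apart, and the libraries hold no measure of how fast the cells grew.

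**Figure D2:**
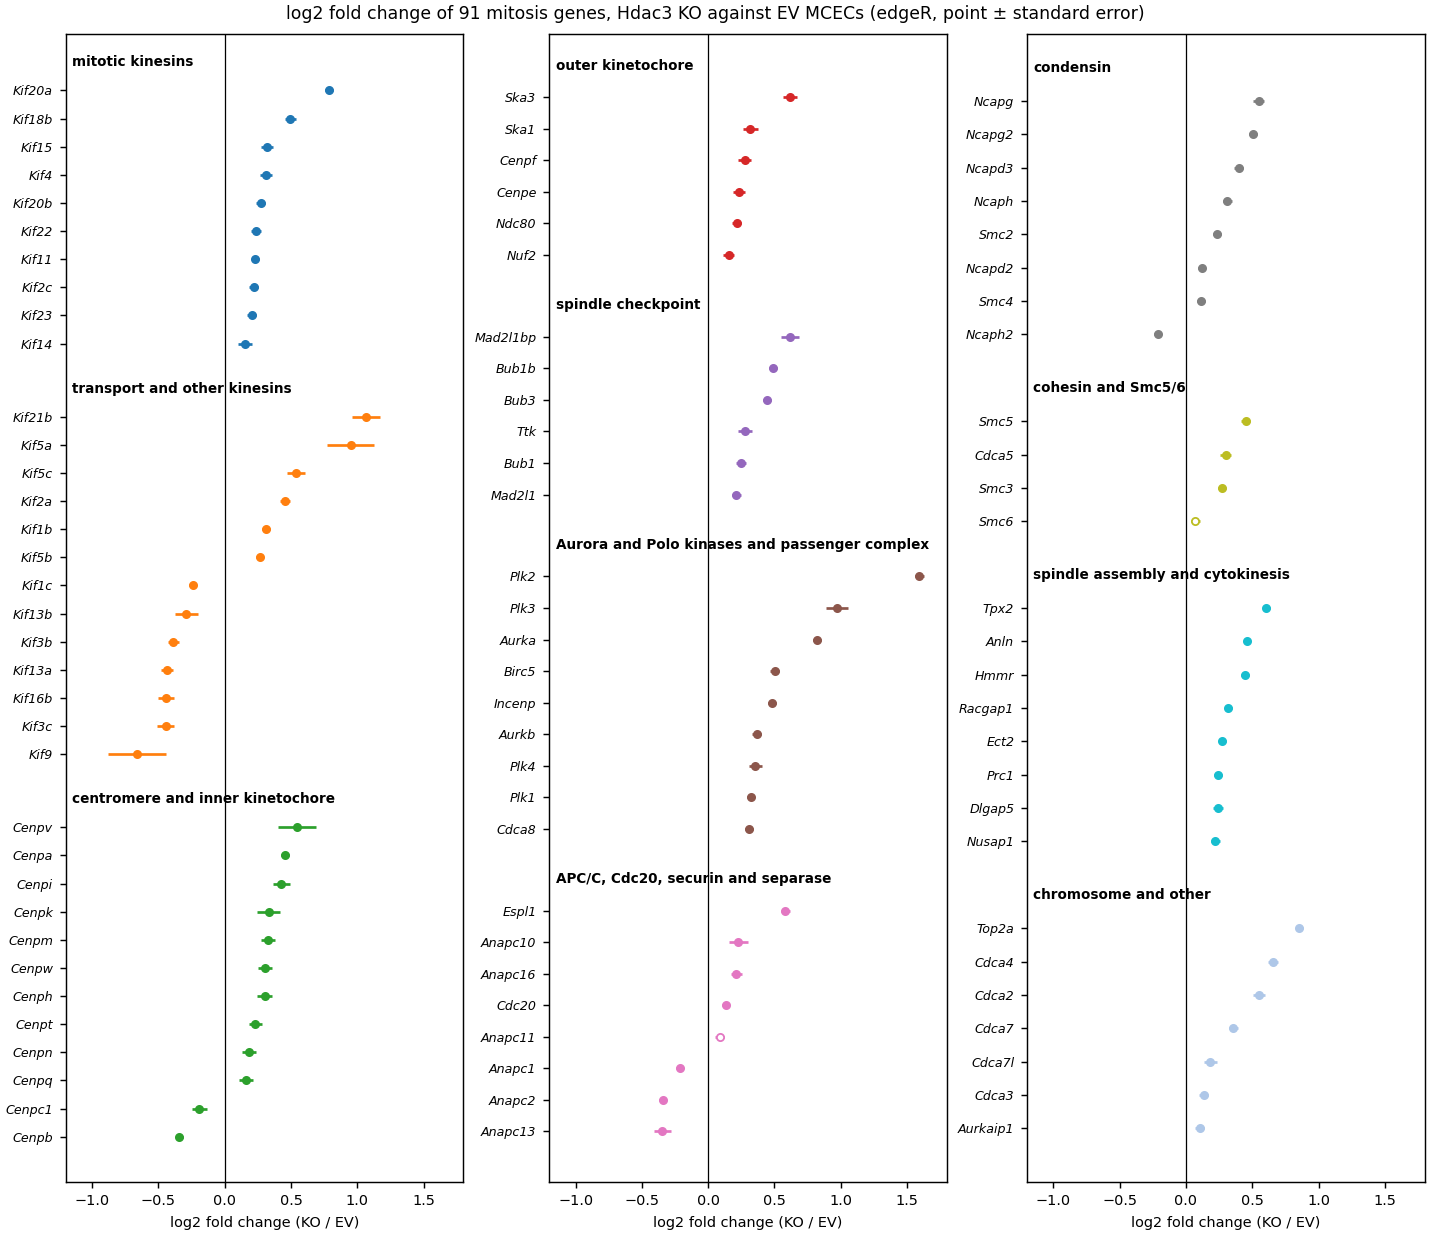
Each point is the log2 fold change of 1 member in KO against EV (horizontal axis) with its standard error, grouped by role, and open points mark members that did not pass an adjusted p of 0.01. Of the 91 points 76 are called and lie right of 0, and 7 of the 13 that are called and lie left of it are transport and other kinesins.

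The direction of the smallest changes depended on the scaling of the libraries. TMM factors rescale libraries by the bulk of the genes given to them. Here these were the 8278 genes of the table, all selected as differing, so the usual basis of mostly unchanged genes is lacking. With library totals alone in place of TMM factors, the median over all genes moved by -0.12, from 0.06 to -0.06. That of the members moved to 0.16. Which scaling is nearer the truth was not tested. The members were 0.22 above all genes both ways. Because the shift is common to all genes, the medians of the roles given from here on moved by it too: to 0.36 for the Aurora and Polo group, 0.24 for the chromosome and other group and for the spindle checkpoint, 0.185 for the centromere group, 0.18 for spindle assembly and cytokinesis, 0.17 for cohesin and Smc5/6, 0.16 for condensin, 0.14 for the mitotic kinesins and the outer kinetochore, and -0.36 for the transport kinesins. Under this scaling 59 members were higher (64.8%, against 32.3% of all genes) and 13 lower, and *Smc4*, *Aurkaip1*, *Smc6* and *Anapc11* turned to slightly negative values. The role counts below use TMM factors. They stand beside 47.1% of all genes higher, and 44.4% with every KO library above every EV library. Each covers only genes that passed the authors' selection, so list genes without a difference could not appear.

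All 9 Aurora kinases, Polo-like kinases and chromosomal passenger genes in the table, of 10 on the list, rose in KO, with log2 fold changes of 0.31 to 1.59 and a median of 0.48. *Plk2* (ENSMUSG00000021701, chromosome 13, 110395044 to 110400844, plus strand), a Polo-like kinase of centriole duplication and stress responses, rose most of all 91 members. Its normalized counts were 1347, 1374, 1447 and 1388 in the 4 EV libraries, replicates 1 to 4 in order here and below, and 4096, 4135, 4117 and 4425 in the 4 KO libraries. KO replicate 4 stood above the other KO libraries, and the groups were far from overlapping. The mean went from 1389 ± 42.1 to 4193 ± 155 (n = 4, SD), a log2 fold change of 1.59 (SE 0.03, adjusted p = 4.1e-30). *Plk1* (ENSMUSG00000030867, chromosome 7, 122159437 to 122169875, plus strand), the main mitotic Polo kinase, moved less, and 7.09% of its exonic bases are overlapped by a gene on the opposite strand. Its EV libraries held 2943, 3036, 2823 and 2909.8 and its KO libraries 3730.5, 3585, 3665 and 3639, a log2 fold change of 0.32 (SE 0.03, adjusted p = 3.8e-12). The other Polo kinases, *Plk3* and *Plk4*, the second of which starts centriole assembly, changed by 0.97 and 0.36 (here and below, a change given as 1 number is a log2 fold change).

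The Aurora genes also rose. *Aurka* (ENSMUSG00000027496, chromosome 2, 172356190 to 172370535, minus strand), the kinase of centrosomes and spindle poles, had 1848, 1943, 1958 and 2008 normalized counts in EV and 3568, 3335, 3414 and 3388 in KO. The lowest KO library was well above the highest EV library, and the log2 fold change of 0.82 (SE 0.03, adjusted p = 2.8e-22) corresponds to a fold of 1.76. *Aurkb*, the kinase of the passenger complex at centromeres, rose from 1619 ± 57.8 to 2086 ± 44.2 (n = 4, SD), a log2 fold change of 0.37 (SE 0.03, adjusted p = 6.1e-12). Survivin (*Birc5*), which docks this complex, had 2116, 1981, 2041 and 2075 in EV and 2896, 2870.2, 2898 and 2954 in KO. That is a log2 fold change of 0.50 (SE 0.03, adjusted p = 9e-17). *Cdca8*, borealin in the same complex, had the smallest change of the group, from 1829 ± 42.8 to 2262 ± 9.39 (n = 4, SD), a log2 fold change of 0.31 (SE 0.03, adjusted p = 6.1e-11). *Incenp*, its scaffold, changed by 0.48. No member of the group overlapped between EV and KO.

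All 7 genes of the chromosome and other group in the table, of 9 on the list, were higher, with a median of 0.36. *Top2a* (ENSMUSG00000020914, chromosome 11, 98992943 to 99024189, minus strand), the topoisomerase that untangles sister chromatids, rose most of the group. Its normalized counts were 11076, 11189, 11068 and 10637 in EV and 19714, 20229, 19571 and 20015 in KO. The spread within each group was small beside the gap, and the mean rose from 10992 ± 243 to 19882 ± 296 (n = 4, SD), a log2 fold change of 0.86 (SE 0.02, adjusted p = 6e-26). *Cdca4* and *Cdca2*, the latter a phosphatase targeting subunit on anaphase chromosomes, changed by 0.66 and 0.55, and *Cdca7* by 0.36. *Aurkaip1*, named for an interaction with Aurora A and a member by its symbol alone, sat at the lower end. It had 1188, 1152, 1215 and 1219 in EV and 1299, 1299, 1294 and 1238 in KO, a log2 fold change of 0.10 (SE 0.04, adjusted p = 0.0095). It was not called without any 1 of EV replicates 1, 2 and 3 (0.10, 0.09 and 0.11) or KO replicates 1, 2 and 3 (0.10 each), nor with the replicate number as a block (adjusted p = 0.015), and its change was -0.01 with library totals alone, where *Cdca3* and *Cdca7l* also lost their calls. Of the exonic bases of *Cdca7l*, 22.4% are overlapped on the opposite strand.

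**Figure D3:**
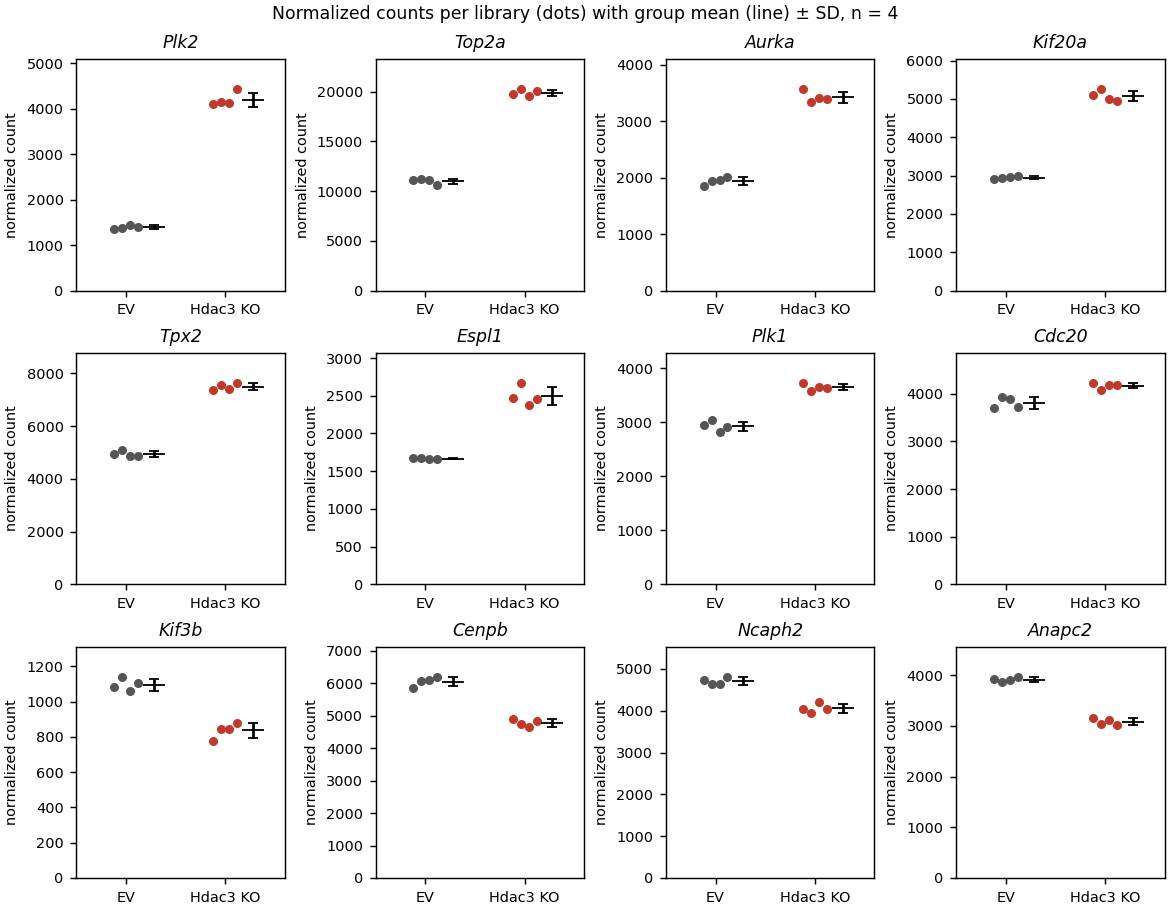
Normalized counts (vertical axes, from 0) of 12 members are plotted per library as dots for EV (grey) and *Hdac3* KO (red), with a bar at the mean ± SD of 4 libraries. In each panel the KO dots lie wholly above (*Plk2* to *Cdc20*) or wholly below (*Kif3b* to *Anapc2*) the EV dots, and the mean rose by 201.8% in *Plk2* and by 9.5% in *Cdc20*.

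All 10 mitotic kinesins in the table, of 11 on the list, rose in KO, with log2 fold changes between 0.15 and 0.78 and a median of 0.25. *Kif20a*, which carries the passenger complex to the central spindle in anaphase, changed most, with 2905, 2947, 2951 and 2979.5 normalized counts in EV and 5107, 5252, 4997 and 4949 in KO, a log2 fold change of 0.78 (SE 0.03, adjusted p = 2.4e-23). Exons of *Cdc23* on the opposite strand overlap 29.3% of its exonic bases, and no source says that reads were counted by strand. *Cdc23* itself changed by 0.30. *Kif11*, the motor that pushes the spindle poles apart, had 4478, 4621, 4614 and 4418 in EV and 5215, 5398, 5331 and 5321 in KO. The mean rose from 4533 ± 101 to 5316 ± 75.9 (n = 4, SD), a log2 fold change of 0.23 (SE 0.03, adjusted p = 1.2e-09). *Kif23*, the motor of centralspindlin, had 1487, 1488, 1402 and 1546 in EV and 1638, 1713, 1765 and 1699 in KO, a log2 fold change of 0.20 (SE 0.04, adjusted p = 5.1e-06) that was 0.08 and not called with library totals alone. *Kif14*, a cytokinesis motor, overlapped between groups, with 689.9, 611, 599 and 674 in EV and 682, 738, 751 and 689.7 in KO, a log2 fold change of 0.15 (SE 0.05, adjusted p = 0.0062). It was not called without EV replicate 2 (0.13), EV replicate 3 (0.12), KO replicate 2 (0.14) or KO replicate 3 (0.13), nor with library totals alone (0.04). The microtubule depolymerase *Kif2c* and the chromokinesins *Kif4* and *Kif22* changed by 0.22, 0.31 and 0.24, *Kif18b*, which shortens astral microtubules, by 0.49, and *Kif15* and *Kif20b* by 0.32 and 0.27. Of the exonic bases of *Kif4*, 15.1% are overlapped on the opposite strand.

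The 13 transport and other kinesins in the table, of 27 on the list, split, with 6 higher, 7 lower and a median of -0.24. Over all genes 47.1% were higher and 49.6% lower, so the split itself lies near that of the whole table. *Kif21b* (ENSMUSG00000041642, chromosome 1, 136131389 to 136177998, plus strand), a motor best known from neurons, rose most, with 92.1, 78.5, 94.6 and 88.3 normalized counts in EV and 184, 208, 169.6 and 178 in KO. These are low levels, and the mean went from 88.4 ± 7.10 to 185 ± 16.3 (n = 4, SD), a log2 fold change of 1.06 (SE 0.11, adjusted p = 3.3e-11). The 3 heavy chains of kinesin-1, the motor of anterograde cargo transport, were all higher, *Kif5a* by 0.95, *Kif5c* by 0.54 and *Kif5b* by 0.26. Per length, *Kif5b* was the abundant one, with a mean of 58.8 FPKM in EV against 0.24 for *Kif5a*. The kinesin-2 motor genes *Kif3b* and *Kif3c*, used in cilia and vesicle transport, were both lower, at -0.39 and -0.45, and opposite-strand exons overlap 40.7% of the exonic bases of *Kif3c*. *Kif9*, a kinesin of motile cilia, had the lowest log2 fold change of all members at low counts, with 28.4, 39.8, 36.4 and 37.1 in EV and 30.4, 22.8, 20.6 and 16.8 in KO. Its groups overlapped, with a log2 fold change of -0.66 (SE 0.22, adjusted p = 0.0046). It was not called by DESeq2 (-0.65), nor without EV replicate 2 (-0.61), 3 (-0.65) or 4 (-0.64) or KO replicate 3 (-0.62) or 4 (-0.54). Among kinesin-3 genes, vesicle motors, *Kif13a*, *Kif13b*, *Kif16b* and *Kif1c* were lower (-0.43, -0.29, -0.44 and -0.24) and *Kif1b* higher (0.31). *Kif13b* overlapped between groups and was not called without EV replicate 4 (-0.26), KO replicate 3 (-0.21) or KO replicate 4 (-0.25). *Kif2a*, a microtubule depolymerase, changed by 0.46, with 19.2% of its exonic bases overlapped on the opposite strand.

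Of 12 centromere and inner kinetochore genes in the table, of 19 on the list, 10 were higher and 2 lower, with a median of 0.30. *Cenpa* (ENSMUSG00000029177, chromosome 5, 30666777 to 30674827, plus strand), the histone H3 variant that marks centromeres, had 2354, 2101, 2359 and 2302 normalized counts in EV and 3149, 3059.6, 3116 and 3161 in KO. All KO libraries were above all EV libraries, and the mean rose from 2279 ± 121 to 3122 ± 45.4 (n = 4, SD), a log2 fold change of 0.45 (SE 0.03, adjusted p = 1.1e-14). *Cenpv*, the highest of the group by fold change, was a low-count gene with overlapping groups, 91.0, 50.9, 79.0 and 70.6 in EV and 107, 117, 87.2 and 113 in KO, a log2 fold change of 0.54 (SE 0.14, adjusted p = 0.00062). *Cenpb*, which binds a short motif of centromeric repeats, went the other way. Its libraries held 5847, 6069, 6088 and 6203 in EV and 4895, 4738, 4641 and 4828 in KO, a fall from 6052 ± 148 to 4775 ± 110.3 (n = 4, SD) and a log2 fold change of -0.34 (SE 0.03, adjusted p = 1.3e-13). *Cenpc1*, which links centromeric nucleosomes to the outer kinetochore, was also lower, at -0.19, and not called without EV replicate 1 or KO replicate 4 (-0.16 each). The other 8, *Cenph*, *Cenpi*, *Cenpk*, *Cenpm*, *Cenpn*, *Cenpq*, *Cenpt* and *Cenpw*, belong to the constitutive centromere network and changed by 0.16 (*Cenpq*) to 0.43 (*Cenpi*). With library totals alone *Cenpk*, *Cenpn*, *Cenpq* and *Cenpt* were no longer called, and *Cenpq* also not without EV replicate 2 (0.13) or KO replicate 3 (0.14).

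All 6 outer kinetochore genes in the table, of 10 on the list, were higher, with a median of 0.25. *Ska3*, of the complex that keeps kinetochores on shortening microtubules, changed most, with 384, 428, 422 and 406 normalized counts in EV and 617, 648, 663 and 589 in KO, a log2 fold change of 0.62 (SE 0.06, adjusted p = 4.3e-12). Its partner *Ska1* changed by 0.32. *Ndc80*, the microtubule-binding rod of the kinetochore, rose from 1392 ± 34.3 to 1612 ± 41.9 (n = 4, SD), with 1409, 1418, 1398 and 1342 in EV and 1572, 1671, 1601 and 1604 in KO, a log2 fold change of 0.21 (SE 0.04, adjusted p = 1.2e-06). *Nuf2*, its partner in the same rod, had 1264, 1189, 1162 and 1237 in EV and 1240.0, 1349, 1428 and 1382 in KO. The groups overlapped, since KO replicate 1 lay below EV replicate 1, and the log2 fold change of 0.16 (SE 0.04, adjusted p = 0.00074) was the smallest of the group. *Cenpe*, a kinesin that moves chromosomes to the equator, also overlapped, with 1409, 1505, 1374 and 1296 in EV and 1499, 1770.2, 1629 and 1637 in KO, a log2 fold change of 0.23 (SE 0.04, adjusted p = 1.1e-05). *Ndc80*, *Nuf2* and *Cenpe* were not called with library totals alone, where they stood at 0.10, 0.04 and 0.11. *Cenpf*, a large protein of the kinetochore corona, changed by 0.27.

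All 6 spindle checkpoint genes in the table, of 8 on the list, rose without overlap between groups, with a median of 0.36. *Mad2l1bp*, which takes Mad2 out of the checkpoint complex and so turns the checkpoint off, had 366, 346, 439 and 366 normalized counts in EV and 651, 563, 544 and 575 in KO, a log2 fold change of 0.62 (SE 0.07, adjusted p = 2.5e-10). It changed most, while *Mad2l1*, which encodes Mad2 itself, changed least. *Mad2l1* had 1922, 1775, 1873 and 1827 in EV and 2075, 2132, 2228 and 2132 in KO, a log2 fold change of 0.21 (SE 0.03, adjusted p = 5.7e-07). *Bub1b*, which encodes the checkpoint protein BubR1, rose from 2936 ± 81.0 to 4121 ± 35.0 (n = 4, SD), with 2925, 2987, 2825 and 3005 in EV and 4118, 4152, 4139.7 and 4073 in KO, a log2 fold change of 0.49 (SE 0.03, adjusted p = 2.3e-17). *Bub1*, a checkpoint kinase at the kinetochore, had 1465, 1394, 1349.8 and 1325 in EV and 1619, 1573, 1669 and 1699 in KO, a log2 fold change of 0.25 (SE 0.04, adjusted p = 2.6e-07). *Bub3*, which carries both to the kinetochore, changed by 0.44, and *Ttk*, the kinase that starts checkpoint signaling, by 0.28.

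The 8 genes in the table of the anaphase-promoting complex (APC/C), Cdc20, securin and separase list, which has 13, did not share a direction. Of these 4 were higher, 3 lower and 1 not called, and their median of 0.11 became -0.01 with library totals alone. Beside the 47.1% higher and 49.6% lower over all genes, these counts do not set the list apart from the table. *Espl1*, the separase that cuts cohesin, had 1672, 1670.3, 1662 and 1666 normalized counts in EV and 2474, 2669.9, 2381 and 2453 in KO. The EV libraries were nearly identical and all KO libraries were above them, a log2 fold change of 0.58 (SE 0.03, adjusted p = 4.2e-17). *Cdc20*, the APC/C activator of metaphase, rose less, from 3809 ± 123 to 4172 ± 59.6 (n = 4, SD). Its values were 3695, 3939.8, 3886 and 3714 in EV and 4228, 4088, 4183 and 4189 in KO, and the log2 fold change of 0.13 (SE 0.03, adjusted p = 6.9e-05) was 0.01 and not called with library totals alone. The 3 lower genes encode APC/C subunits: the scaffold *Anapc1* (-0.22), the cullin *Anapc2* (-0.34) and the small subunit *Anapc13*. For *Anapc13* the counts were 524, 462, 489.8 and 493 in EV and 429, 389.7, 393 and 339.7 in KO, a log2 fold change of -0.35 (SE 0.06, adjusted p = 8.6e-06), with 10.1% of its exonic bases overlapped on the opposite strand. *Anapc11*, the RING subunit, had 2253, 2239.6, 2320.1 and 2232 in EV and 2467, 2340.2, 2492 and 2302 in KO and did not pass the test, with a log2 fold change of 0.09 (SE 0.03, adjusted p = 0.012). It passed without KO replicate 2 (0.10) or KO replicate 4 (0.11), with DESeq2 (0.10), with DESeq2's (0.10) or the authors' size factors (0.11), and when only genes with a mean of at least 10 counts or protein-coding genes were fitted (0.09 each), and it stood at -0.03 with library totals alone. *Anapc10* and *Anapc16* were at 0.23 and 0.21, and neither was called with library totals alone, nor *Anapc10* without EV replicate 3 (0.17), EV replicate 4 (0.20) or KO replicate 3 (0.20).

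All 8 condensin genes were in the table, and 7 were higher and 1 lower, with a median of 0.27. *Ncapg*, a subunit of condensin I with 13.4% of its exonic bases overlapped by *Lcorl* on the opposite strand, had 1153, 1046, 1097 and 992 normalized counts in EV and 1499.7, 1481, 1639 and 1634 in KO. It rose most, from 1072 ± 68.9 to 1563 ± 84.9 (n = 4, SD), a log2 fold change of 0.55 (SE 0.04, adjusted p = 1.2e-13). *Smc2*, an ATPase core shared by condensin I and II, had 3269.8, 3054, 3022 and 3012 in EV and 3454, 3747, 3593 and 3732 in KO, a log2 fold change of 0.24 (SE 0.03, adjusted p = 2.9e-08). EV replicate 1 lay apart from the other EV libraries, and without it the change was 0.26. *Ncaph2*, the kleisin of condensin II, was the lower one. Its normalized counts fell from 4704 ± 90.7 to 4059 ± 104 (n = 4, SD), with 4745, 4627, 4632 and 4813 in EV and 4039, 3948, 4199 and 4049 in KO, a log2 fold change of -0.21 (SE 0.03, adjusted p = 1.4e-08), and 19.8% of its exonic bases are overlapped on the opposite strand. The other condensin II subunits *Ncapg2* and *Ncapd3* rose by 0.51 and 0.40, and the condensin I subunits *Ncaph* and *Ncapd2* by 0.31 and 0.12. The other core ATPase, *Smc4*, was called at 0.11 with overlapping groups, but it was not called without EV replicate 4 (0.07), its lowest EV library, and neither it nor *Ncapd2* was called with library totals alone.

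Of 4 cohesin and Smc5/6 genes in the table, of 6 on the list, 3 were higher and 1 was not called, with a median of 0.29. *Smc3*, a core ATPase of cohesin, had 6136, 6250.2, 5956 and 5792 normalized counts in EV and 7099, 7568, 7289.7 and 7171 in KO, a log2 fold change of 0.27 (SE 0.03, adjusted p = 8.3e-11). *Smc5* and *Smc6* form a repair complex together but stood at different values. *Smc5* rose from 1931 ± 78.4 to 2635 ± 50.4 (n = 4, SD), with 1951, 2015, 1930.1 and 1827 in EV and 2631, 2707, 2611 and 2593 in KO, a log2 fold change of 0.45 (SE 0.03, adjusted p = 1.1e-14). *Smc6* had 2974, 2863, 2726 and 2555 in EV and 2869, 2995, 2917 and 2876 in KO, overlapping groups with a log2 fold change of 0.07 (SE 0.03, adjusted p = 0.048). That value became -0.05 with library totals alone and 0.03 without EV replicate 4, and it passed the test without EV replicate 1 (0.10) or with the authors' size factors (0.10). *Cdca5*, sororin, which protects cohesin until anaphase, changed by 0.30.

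All 8 spindle assembly and cytokinesis genes were in the table and higher in KO without overlap, with a median of 0.30. *Tpx2* (ENSMUSG00000027469, chromosome 2, 152847964 to 152895321, plus strand), which activates Aurora A on spindle microtubules, had 4948, 5084, 4859 and 4851 normalized counts in EV and 7373, 7574, 7421 and 7639 in KO. The mean rose from 4935 ± 108 to 7502 ± 125 (n = 4, SD), a log2 fold change of 0.60 (SE 0.03, adjusted p = 7e-21). *Nusap1*, a microtubule bundling protein near chromosomes, changed least, with 2140.5, 2088, 1987 and 2073 in EV and 2307, 2459.5, 2499.6 and 2399 in KO, a log2 fold change of 0.22 (SE 0.03, adjusted p = 1.7e-07). *Hmmr* and *Dlgap5*, spindle microtubule proteins, changed by 0.45 and 0.24. The cleavage furrow genes *Anln*, *Ect2* and *Racgap1* changed by 0.46, 0.27 and 0.32, and *Prc1*, which bundles the central spindle, by 0.24, with 11.1% of its exonic bases overlapped on the opposite strand.

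Ratios of 2 members within a library do not depend on how libraries are scaled. The 8 pairs were chosen after the values were seen and are a description with no test. The log2 ratio of *Plk2* to *Plk1* counts ran from -1.14 to -0.96 in EV and from 0.13 to 0.28 in KO. It is a ratio of reads, not of levels per length, and its sign changed between the groups. The ratio of *Aurka* to *Aurkb* moved from 0.26 ± 0.06 to 0.72 ± 0.04 (SD, n = 4 libraries each) and that of *Kif20a* to *Kif23* from 0.99 ± 0.06 to 1.58 ± 0.06. Within condensin II the ratio of *Ncapg2* to *Ncaph2* moved by 0.72, and within condensin I that of *Ncapg* to *Ncapd2* by 0.43. Separase over Cdc20 (*Espl1* to *Cdc20*) moved by 0.45, *Top2a* to *Smc2* by 0.62 and the transport motors *Kif5b* to *Kif3b* by 0.65. The EV and KO libraries did not overlap in any of the 8 pairs, which the choice of members with unequal fold changes favours.

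**Figure D4:**
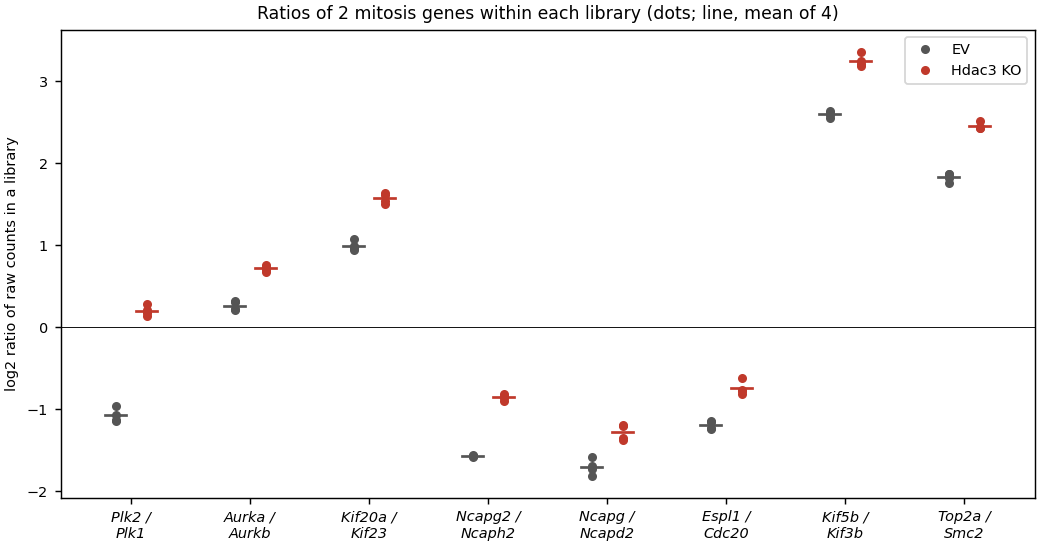
Dots give the log2 ratio of raw counts of 2 members in each library (vertical axis) for 8 pairs, EV in grey and *Hdac3* KO in red, with a line at the mean of 4 libraries. The *Plk2* to *Plk1* ratio crosses 0, from a mean of -1.08 in EV to 0.20 in KO.

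Levels of the members were compared with each other only per length, as the deposited FPKM, which is not TMM-scaled. In EV the mean FPKM was highest for *Cdc20* (113.5), *Top2a* (112.5) and *Cenpa* (90.0), followed by *Anapc1*, *Kif1c*, *Ncaph2* and *Plk1* between 79.1 and 71.0. The lowest were *Kif5a* (0.24), *Kif21b* (0.51) and *Kif9* (0.59). The transport kinesins had a median of 4.10 FPKM in EV and a range of 0.24 to 77.3. The median was 22.1 for the mitotic kinesins, 9.62 for the outer kinetochore, 16.7 for the centromere group and 53.0 for spindle assembly and cytokinesis. Across the 91 genes, which share the same libraries and are not replicates, Spearman's rho of the log2 fold change was -0.09 with the EV FPKM and -0.05 with gene length. The standard error had a median of 0.04 and was largest for *Kif9* at 0.22, whose lowest count in a library was 18, also the lowest of all members.

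**Figure D5:**
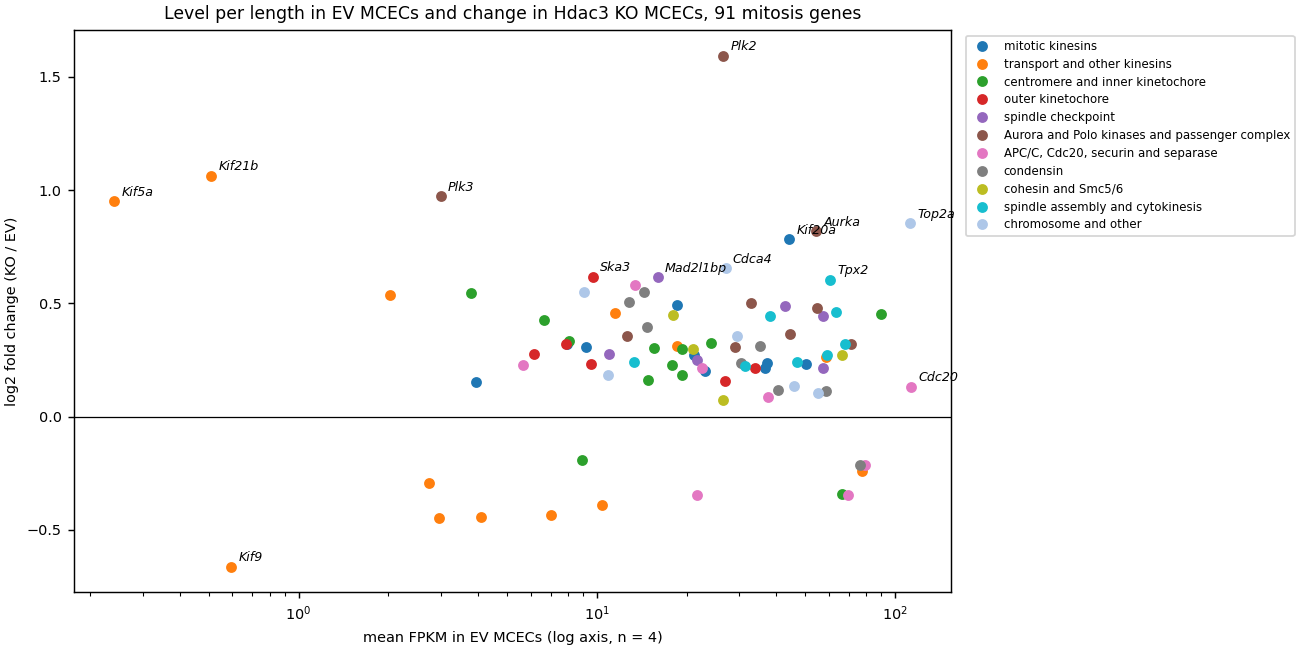
Each point is a member, with its mean FPKM in EV on a log axis (horizontal) and its log2 fold change in KO against EV (vertical), coloured by role. Abundant and rare members lie on both sides of 0, and of the 3 rarest *Kif5a* and *Kif21b* lie above 0 and *Kif9* below it.

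Mitosis genes that the naming rule does not cover were read from a list of 72, of which 54 were in the table. Of these 47 were higher, 4 lower and 3 not called, with a median of 0.30, beside 47.1% higher and a median of 0.06 over all genes. With library totals alone this median was 0.18. *Mybl2*, the B-Myb factor of late cell cycle promoters, went from 817 ± 16.9 to 1708 ± 69.1 normalized counts (n = 4, SD), a log2 fold change of 1.06 (SE 0.04, adjusted p = 6.6e-23). *Trip13*, which acts with *Mad2l1bp* on Mad2, changed by 0.81, and *Cdk1*, the mitotic kinase, by 0.55. The 2 mitotic B cyclins went in opposite directions. *Ccnb1* ran from 3929 to 3990 normalized counts in EV and from 6092 to 6464 in KO, a log2 fold change of 0.67 (SE 0.03, adjusted p = 1.9e-21). *Ccnb2* ran from 2390 to 2446 in EV and from 1783 to 1876 in KO, a log2 fold change of -0.41 (SE 0.03, adjusted p = 3.5e-14). The other lower genes were *Pkmyt1* (-0.23), *Mau2* (-0.16) and *Pds5b* (-0.12). Among the APC/C subunits of this list, *Cdc23* and *Cdc27* rose by 0.30 and 0.13, while *Cdc16* and *Cdc26* did not pass the test, at 0.07 and 0.11.

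S phase genes, which copy the DNA before mitosis, were read from a list of 50, of which 42 were in the table. There 32 were higher, 4 lower and 6 not called, beside 47.1% higher over all genes, with a median of 0.26 that became 0.14 with library totals alone. *Cdc6*, a loader of the replicative helicase, rose by 0.81, *Orc6* by 0.61 and *Mcm10* by 0.59, while the helicase subunits *Mcm6* and *Mcm7* were lower at -0.38 and -0.15, with *Gins1* at -0.21 and *E2f1* at -0.14. The median of the mitosis members without the transport kinesins, 70 of 78 of them higher, was 0.30, and the difference between this value and that of the S phase list was not tested.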

How the data were processed

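RNA of 4 EV and 4 *Hdac3* KO MCEC libraries was sequenced on an Illumina NextSeq500. The authors used tophat2 and bowtie2 to map reads onto mm10. Their processing notes name CASAVA and DESeq 1.6.3. The study's methods name the lumi package for extracting the count matrix, the cufflinks suite for differential expression and DESeq2 for testing, and which program and annotation assigned reads to genes is not given in the sources used here. The deposited counts are raw whole numbers of reads per gene. The deposited FPKM values divide each count by gene length and library total. The authors' group means are a signal, counts divided by a size factor, from which those factors were recovered. The authors' p-values, adjusted by Benjamini-Hochberg, were used only to see that each of the 8278 genes has an adjusted p-value under 0.05, and their fold changes were not used. The 2 tables of higher and lower genes were not used.

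Library totals were recovered from count, length and FPKM and multiplied by TMM factors, which were computed on the 8278 listed genes. Counts were tested with edgeR 4.0.16 (quasi-likelihood, R 4.3.3, limma 3.58.1), unpaired and without a filter, with Benjamini-Hochberg adjustment over 8278 genes and a cut-off of 0.01. The common coefficient of variation between libraries beyond counting noise was 2.82%. No 2 libraries of a group agreed within sampling noise (chi-square per degree of freedom 1.8 to 3.67). Reads carry no molecular identifiers, so depth covers counting error only. Normalized counts are counts divided by relative library size. The test was run on simulated counts in which few genes changed. In this table most genes are called, so that run does not check the scaling here. Alternatives were DESeq2 1.42.0, its size factors, the authors' size factors, library totals alone, a replicate block, a mean of at least 10 counts, protein-coding genes only, cut-offs of 0.05 and 0.001, adjustment over 30000 genes, and leaving out each library. The members and lists were chosen with earlier results of these data known. Members with full values are a list of well-known mitotic genes, and the highest and lowest of each role by log2 fold change. Those not called were to be named only, and the values of *Anapc11*, 1 of these, are given in addition. Exon overlaps are from GENCODE vM21 on the same build: 10 members had over 5% of their exonic bases overlapped by another gene, and 2, *Kif22* and *Kif4*, have a named pseudogene copy. Promoter windows are from RefSeq. Figures: matplotlib 3.10.9, Python 3.11.15.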

Additional observations from a re-analysis of the deposited data

Results flagged for a closer look

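Of 72 groups of 4 libraries of the members with full values, 3 had 1 library far from the other 3, where chance alone gives 3.6. For *Smc2* the normalized count of EV replicate 1 was 3270, beside 3012 to 3054 for the remaining EV libraries, a gap of 0.836 of the range, and its log2 fold change was 0.26 without that library and 0.24 with it. *Plk2* in KO replicate 4 had 4425 against 4096 to 4135, a gap of 0.881, with 1.57 without that library and 1.59 with it. *Aurkaip1* in KO replicate 4 had 1238 against 1294 to 1299, a gap of 0.916, with 0.12 without that library and 0.10 with it.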

How the results depend on the processing

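The 76 higher and 13 lower members became 59 to 78 and 10 to 13 over the alternatives, all within 1.5 times. The median log2 fold change of the members, 0.28, moved by more than the spread between libraries (0.02) with library totals alone (0.159), with the authors' size factors (0.302) and without KO replicate 4 (0.309), and ran from 0.281 to 0.309 when each library was left out. With library totals alone *Smc6* (-0.0459) and *Aurkaip1* (-0.0147) reversed among the members with full values tried under each alternative, and *Anapc11* (-0.0314) and *Smc4* (-0.00383) among the others; the median over all genes was lower by 0.12 there as well. Leaving out each library gave 72 to 77 higher and 10 to 13 lower members, and 8 members lost their call in at least 1 of these fits. Same-numbered libraries did not deviate together (correlations of -0.09 to 0.10 over 7531 genes). Whether they were prepared in matched sets is not given, and these values cannot show it. With the replicate block 75 members were higher and 13 lower, with a median of 0.275, and *Aurkaip1* lost its call. DESeq2 called 77 higher and 12 lower. For 36 members, 513 of 540 values under an alternative kept their direction and side of the cut-off, 23 lost their call, 2 gained one and 2 reversed. The depth limits *Kif9*, *Kif5a*, *Cenpv* and *Kif21b* most. The table omits genes outside its own selection, so the shares describe listed genes.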
